A study of Mus musculus with 4 samples.

Results

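Angiogenic growth factors and the hypoxia response were followed through 10 genes fixed by name: the vascular endothelial growth factor (VEGF) family ligands *Vegfa*, *Vegfb*, *Vegfc* and *Pgf*, the angiopoietins *Angpt1* and *Angpt2*, the angiopoietin-like gene *Angptl2*, the fibroblast growth factor *Fgf1*, the hypoxia-inducible factor subunit *Hif1a* and the vasodilator peptide gene *Adm*. Of these 10 genes, 9 were measured, each by 1 probe set named for that gene alone, among 19938 genes in all. *Angptl2* had no probe set carrying its name alone and was not analysed here. Subcutaneous adipose tissue (SAT) of C57Bl6 male mice aged 16 weeks was compared in 4 groups. The cKO-HFD and WT-HFD mice had been fed for 8 weeks a high fat diet (HFD, D12492) and the cKO-CT and WT-CT mice a control diet (CT, AIN93M). All groups carried the loxP-flanked *Napepld* allele (NAPE PLD lox/lox). The cKO mice also carried AP2 Cre, a Cre recombinase driven by the *Fabp4* promoter, which is active in adipocytes and can act in some other cells, and the remaining cells of the tissue keep the gene. RNA of 4 to 5 mice was pooled for each group and hybridized to 1 array, so there are no replicates, no test was possible, and a difference between 2 arrays cannot be told apart from the spread between mice or hybridizations. Values are log2 levels and log2 ratios, and a gene was called when its log2 ratio between 2 arrays reached 1.5-fold (0.585 on the log2 scale) in either direction.

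New capillaries grow in fat when adipocytes and stromal cells secrete VEGF ligands, which act on the receptors Flt1 and Kdr of endothelial cells, while angiopoietins act on the receptor Tek to settle or loosen the vessel wall. When oxygen is short, the alpha subunits of hypoxia-inducible factor (HIF) escape degradation and raise the transcription of *Vegfa*, *Adm* and glycolytic genes. This control acts mainly on the HIF protein, so that the *Hif1a* mRNA does not report HIF activity. Expanding fat of obese mice is known for hypoxia, and brown and beige fat for a dense capillary bed that depends on *Vegfa*.

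The promoters of 3 genes are shown because *Adm* and *Vegfa* are HIF targets that differed between the arrays in opposite ways and *Hif1a* is their regulator. Each window runs from 250 bases before to 50 bases after the RefSeq transcript start on GRCm38.p6. Capitals mark the core of the hypoxia response element, ACGTG, or CACGT where it lies on the other strand.
*Adm*, chr7:110627407-110627706, + strand: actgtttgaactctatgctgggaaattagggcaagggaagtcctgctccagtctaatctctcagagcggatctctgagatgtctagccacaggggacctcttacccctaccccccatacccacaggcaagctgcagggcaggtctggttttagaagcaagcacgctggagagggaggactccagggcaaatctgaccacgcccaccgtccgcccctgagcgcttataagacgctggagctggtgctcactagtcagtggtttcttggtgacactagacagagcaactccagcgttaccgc
*Vegfa*, chr17:46032328-46032627, - strand: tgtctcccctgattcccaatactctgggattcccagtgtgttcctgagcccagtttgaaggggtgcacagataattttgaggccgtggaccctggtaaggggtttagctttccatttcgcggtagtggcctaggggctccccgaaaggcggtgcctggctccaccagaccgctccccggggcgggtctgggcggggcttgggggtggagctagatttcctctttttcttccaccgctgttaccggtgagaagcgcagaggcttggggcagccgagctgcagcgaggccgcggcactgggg
*Hif1a*, chr12:73907617-73907916, + strand: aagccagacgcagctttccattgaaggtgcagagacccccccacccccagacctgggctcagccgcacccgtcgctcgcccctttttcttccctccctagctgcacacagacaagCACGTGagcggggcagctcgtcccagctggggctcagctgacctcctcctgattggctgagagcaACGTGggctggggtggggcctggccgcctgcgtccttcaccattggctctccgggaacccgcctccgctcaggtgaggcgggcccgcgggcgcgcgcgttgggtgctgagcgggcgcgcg
The *Hif1a* window held the core at 3 places. Of these, 2 overlap in the palindrome that starts 135 bases before the transcript start, and the third starts 70 bases before it. The *Adm* and *Vegfa* windows held none. RefSeq windows of 7 of the 10 genes were used, 9 windows in all. Any windows of the set on a held-out chromosome were left out, a limit not applied to the shares that follow. Of the 9 windows, 2 held the core, the second being a window at an internal *Vegfa* start (chr17:46025114-46025413, - strand). Over all 32851 windows 19.6% held it. In the windows of HIF target genes listed for comparison, it lay in 12 of 25 windows of glycolytic targets and in 13 of 21 windows of other targets. A match is only a run of letters in this window. A window without one does not show that the gene lacks the element, since sequence outside the window was not searched.

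The arrays held adipose tissue together with other tissues. All 9 measured markers of mature adipocytes lay above background on every array, and *Adipoq*, the adiponectin gene, stood at 12.70 on cKO-HFD, 12.59 on WT-HFD, 12.66 on cKO-CT and 12.44 on WT-CT. Background was set at the 95th percentile of 1027 olfactory receptor (*Olfr*) genes, which was 5.50, 5.42, 5.28 and 5.39 on these arrays. The mean log2 level of 15 skeletal muscle markers was 7.51 on cKO-HFD, 11.02 on WT-HFD, 9.40 on cKO-CT and 9.59 on WT-CT. That of 10 pancreatic acinar markers was 5.38, 5.45, 5.24 and 7.18 on the same arrays. Muscle markers thus peaked on WT-HFD and were lowest on cKO-HFD, and acinar markers stood out on WT-CT. The part of these tissues in the levels below was not tested. The targeted gene *Napepld* had log2 levels of 7.94 on cKO-HFD, 8.01 on WT-HFD, 7.78 on cKO-CT and 8.31 on WT-CT, and its log2 ratio passed 1.5-fold in neither genotype comparison. The sources used here do not place its probe set inside or outside the deleted part, so this checks the labels only loosely.

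*Vegfa*, the main growth factor of capillary endothelium, was lower on both HFD arrays than on both CT arrays. Its log2 level was 9.06 on cKO-HFD, 9.21 on WT-HFD, 9.80 on cKO-CT and 9.78 on WT-CT. The arrays of one diet lay within 0.15 of each other. How many of all genes separate the 2 diets in this way was not counted. In cKO-HFD over cKO-CT *Vegfa* fell by 0.74 (1.67-fold). In WT-HFD over WT-CT the log2 ratio was -0.58 (1.49-fold), just short of 1.5-fold, and after cyclic loess scaling between the arrays it was -0.61 and passed. For scale, the robust SD of the log2 ratios of the 500 genes nearest in level was 0.21 in cKO mice and 0.31 in WT mice, a spread over genes and not a replicate error. The genotype ratios of *Vegfa* were small, 0.02 in cKO-CT over WT-CT (-0.07 after cyclic loess) and -0.15 in cKO-HFD over WT-HFD.

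**Figure D1:**
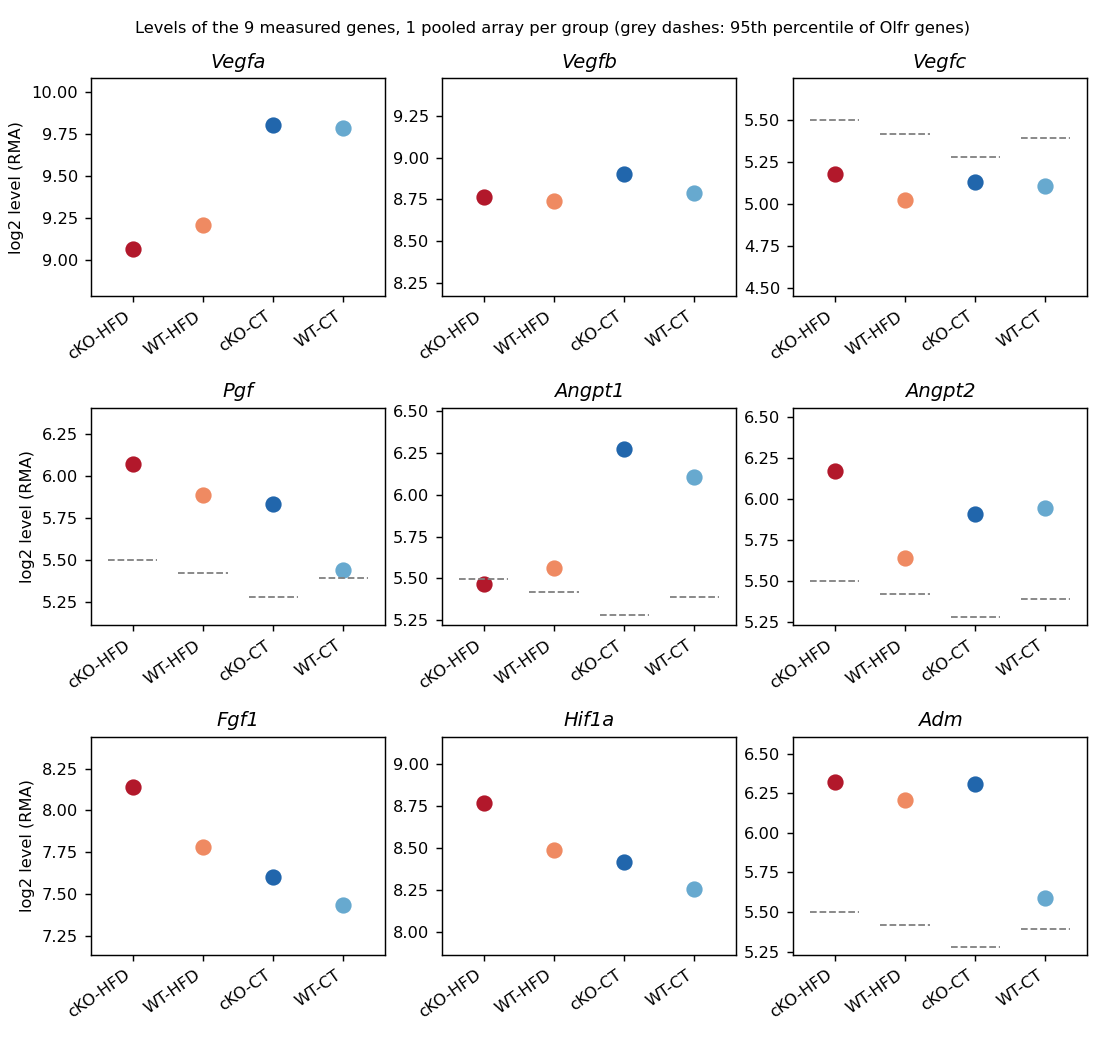
Log2 level (vertical axis, with its own range in each panel) of each of the 9 measured genes on the cKO-HFD, WT-HFD, cKO-CT and WT-CT arrays, 1 point per pooled array, with grey dashes at that array's *Olfr* background (95th percentile). *Vegfa* and *Angpt1* sit lower on both HFD arrays, *Adm* sits lowest on WT-CT (5.59), and *Vegfc* lies below the dashes throughout.

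*Vegfb*, a ligand of Flt1 that is abundant in oxidative tissues, differed little, with log2 levels of 8.77 on cKO-HFD, 8.74 on WT-HFD, 8.90 on cKO-CT and 8.79 on WT-CT. *Vegfc*, the growth factor of lymphatic vessels, was under the *Olfr* background throughout (5.18, 5.02, 5.13 and 5.11 on the same arrays), so its ratios are not resolved. *Pgf*, the placental growth factor, which also binds Flt1, was lowest on WT-CT. It measured 6.08 on cKO-HFD, 5.89 on WT-HFD, 5.84 on cKO-CT and 5.44 on WT-CT in log2 level, the last just above the background of 5.39. *Pgf* had log2 ratios of 0.39 in cKO-CT over WT-CT and 0.44 in WT-HFD over WT-CT, both under 1.5-fold. Within the VEGF family, *Vegfa* and *Pgf* thus differed in opposite directions between the HFD arrays and WT-CT, and *Vegfb* differed little.

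*Angpt1*, which activates Tek and is made mainly by pericytes and other mesenchymal cells, followed the pattern of *Vegfa*. Its log2 level was 5.47 on cKO-HFD, 5.56 on WT-HFD, 6.27 on cKO-CT and 6.11 on WT-CT. Both HFD arrays lay below both CT arrays, an order that was not counted over all genes. On cKO-HFD the level was under the *Olfr* background of 5.50, so the size of its fall there is not resolved. *Angpt1* fell by 0.80 in cKO-HFD over cKO-CT and had a log2 ratio of -0.55 in WT-HFD over WT-CT (1.46-fold). *Angpt2*, which endothelial cells store and release and which can oppose *Angpt1* at Tek, had another order. Its log2 level was 6.17 on cKO-HFD, 5.64 on WT-HFD, 5.91 on cKO-CT and 5.94 on WT-CT. *Angpt2* was highest on cKO-HFD and lowest on WT-HFD, with a log2 ratio of 0.53 between them (1.44-fold), the largest genotype ratio of any measured gene of the set on HFD. On CT its genotype ratio was -0.04. None of the ratios of *Angpt2* passed 1.5-fold.

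*Fgf1*, which in mice is induced in fat by high fat feeding and is needed for normal fat expansion, had a log2 level of 8.14 on cKO-HFD, 7.78 on WT-HFD, 7.60 on cKO-CT and 7.44 on WT-CT. *Hif1a* showed the same order, with 8.77 on cKO-HFD, 8.48 on WT-HFD, 8.42 on cKO-CT and 8.25 on WT-CT. For both genes, then, each HFD array stood above the CT array of its genotype and each cKO array above the WT array of its diet. This was not particular to them, since *Pgf* had the same order. *Adm* also had genotype and diet ratios above 0, though only 0.01 in cKO-HFD over cKO-CT. How many of all genes show this order was not counted. *Fgf1* had diet ratios of 0.54 in cKO-HFD over cKO-CT and 0.35 in WT-HFD over WT-CT, and genotype ratios of 0.36 on HFD and 0.16 on CT. After cyclic loess its diet ratio in cKO mice was 0.59 and passed 1.5-fold. *Hif1a* had diet ratios of 0.35 in cKO mice and 0.23 in WT mice, and genotype ratios of 0.29 on HFD and 0.16 on CT, and none passed.

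*Adm*, which encodes the vasodilator adrenomedullin, stood apart on WT-CT alone. It measured 6.32 on cKO-HFD, 6.21 on WT-HFD, 6.30 on cKO-CT and 5.59 on WT-CT (log2 level). The first 3 arrays lay within 0.11 of each other, and WT-CT lay close to its own *Olfr* background of 5.39. *Adm* rose by 0.72 in cKO-CT over WT-CT (1.64-fold) and by 0.62 in WT-HFD over WT-CT (1.53-fold). Its log2 ratio was 0.11 in cKO-HFD over WT-HFD and 0.01 in cKO-HFD over cKO-CT. The rises therefore rest on the WT-CT array, which both comparisons share and which also had the highest acinar markers.

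**Figure D2:**
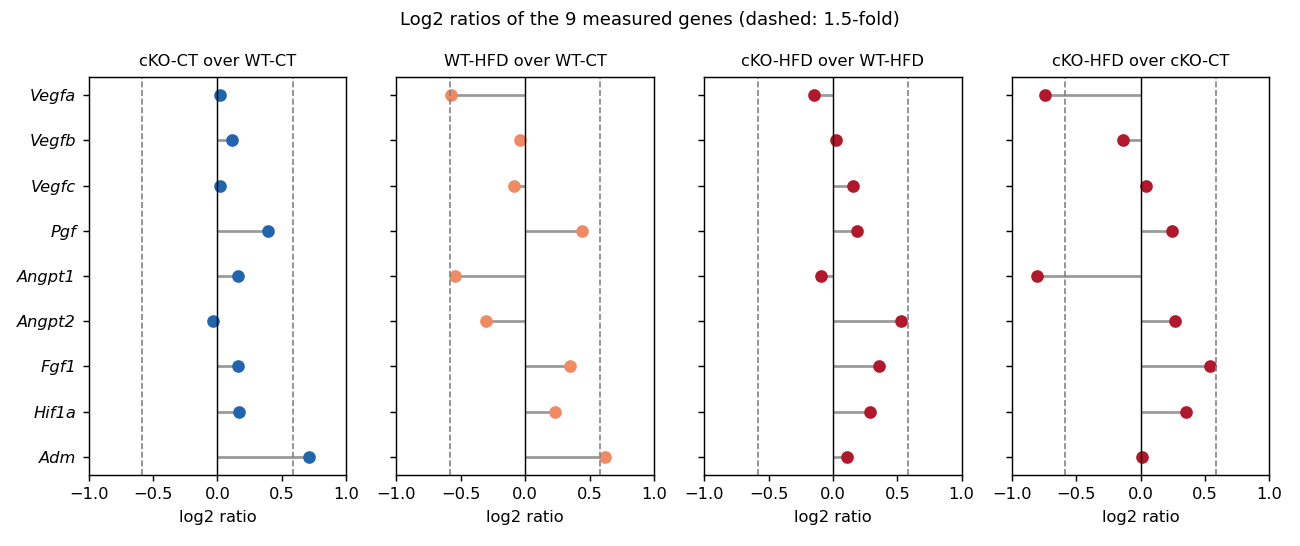
Log2 ratio (horizontal axis) of each of the 9 measured genes in cKO-CT over WT-CT, WT-HFD over WT-CT, cKO-HFD over WT-HFD and cKO-HFD over cKO-CT, with dashed lines at 1.5-fold. *Adm* passes to the right in both comparisons with WT-CT (0.72 and 0.62), and *Vegfa* (-0.74) and *Angpt1* (-0.80) pass to the left in cKO-HFD over cKO-CT.

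Over the set, most ratios between genotypes lay above 0, with small sizes. In cKO-CT over WT-CT, 8 of 9 ratios lay above 0, and 7 of 9 after cyclic loess. The 8 include *Vegfc*, which was under background throughout. Of the set 1 gene (*Adm*) rose and none fell, where 1.64% of all genes were higher and 1.52% lower. The median log2 ratio was 0.16, against -0.01 over all genes, and 0.08 after cyclic loess. Among genes averaging 7 or more in log2 level it was 0.14 for the 4 of the set, against 0.11 over all such genes. After centring each array on its median, 416 genes were higher and 255 lower in this comparison, in place of 327 and 303. In cKO-HFD over WT-HFD, 7 of 9 ratios lay above 0 and no gene of the set passed, where 1.04% of all genes were higher and 2.11% lower, and the median was 0.15 against 0.03. The shares of all genes with a ratio above 0 were 49.2% on CT and 55.5% on HFD.

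Between the diets, the genes of the set differed in both directions. In WT-HFD over WT-CT, 4 of 9 ratios lay above 0, *Adm* rose and none fell, where 3.16% of all genes were higher and 2.67% lower, and the median log2 ratio was -0.04 against -0.004 over all genes. In cKO-HFD over cKO-CT, 6 of 9 ratios lay above 0, none rose and 2 fell (*Vegfa* and *Angpt1*), where 1.82% of all genes were higher and 2.17% lower, and the median was 0.04 against 0.02. After cyclic loess 4 of 9 lay above 0 and the median was -0.02. These diet comparisons share no array. *Vegfa*, *Angpt1* and *Vegfb* had ratios below 0 in both genotypes, *Fgf1*, *Hif1a* and *Pgf* above 0 in both, and *Angpt2* differed in sign. The signs of *Adm* and *Vegfc* in cKO mice were not settled, with ratios of 0.01 and 0.04 that were -0.02 and -0.06 after cyclic loess. The difference of the diet ratios, cKO minus WT, was 0.57 for *Angpt2* and -0.60 for *Adm*, and between -0.26 and 0.19 for the other measured genes. Only *Adm* passed 1.5-fold in this difference, as 10.7% of all genes did.

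**Figure D3:**
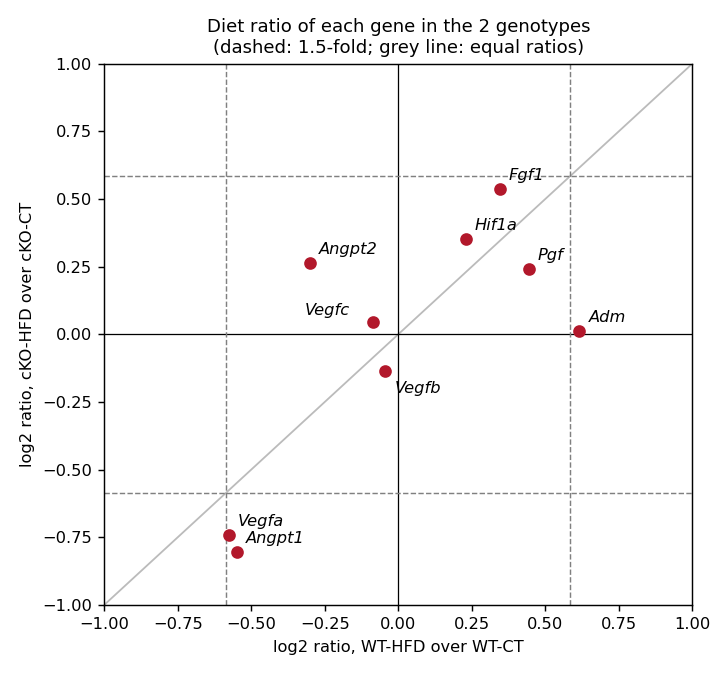
Diet ratio of each of the 9 measured genes in cKO mice (vertical axis, log2 ratio of cKO-HFD over cKO-CT) against that in WT mice (horizontal axis, log2 ratio of WT-HFD over WT-CT), with dashed lines at 1.5-fold and a grey line where both are equal. *Vegfa* and *Angpt1* lie together at the lower left, and *Adm* lies at 0.62 in WT mice and 0.01 in cKO mice.

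The cKO-HFD array against WT-CT held the most calls in the set. In cKO-HFD over WT-CT, a comparison added after the others had been seen and in which genotype and diet both differ, *Pgf* (0.63), *Fgf1* (0.70) and *Adm* (0.73) rose, and *Vegfa* (-0.72) and *Angpt1* (-0.64) fell. These are 5 of 9 genes, where 3.36% of all genes were higher and 3.41% lower. *Hif1a* had a log2 ratio of 0.52 there, *Angpt2* 0.23, *Vegfc* 0.07 and *Vegfb* -0.02. The comparison uses the same WT-CT array as the 2 above.

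By the distance over the 3 log2 ratios to WT-CT, among 5361 genes whose level averaged 7 or more on the log2 scale, the genes most like *Vegfa* were *Car13* (distance 0.08), *S100a1* (0.09) and *Slc44a3* (0.11). Within the set the closest pairs were *Vegfb* and *Vegfc* (0.13), *Vegfa* and *Angpt1* (0.17), and *Fgf1* and *Hif1a* (0.22). *Vegfa* and *Adm*, both HIF targets, were the farthest pair of the set.

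The receptors of these ligands gave no call in the VEGF family. None of the 5 VEGF receptors and co-receptors passed 1.5-fold in any comparison, and their median log2 ratio was 0.32 in cKO-CT and 0.09 in WT-HFD, each over WT-CT, 0.24 in cKO-HFD over WT-HFD and -0.11 in cKO-HFD over cKO-CT. *Kdr*, the main signalling receptor of *Vegfa*, had a log2 level of 8.38 on cKO-HFD, 8.02 on WT-HFD, 8.54 on cKO-CT and 8.04 on WT-CT. *Kdr* thus stood higher on each cKO array than on the WT array of its diet, by 0.35 on HFD and 0.51 on CT. *Flt1*, which binds *Vegfa*, *Vegfb* and *Pgf*, stayed between 7.94 and 8.23. *Tek*, the angiopoietin receptor, stayed between 7.84 and 8.16. Of the 7 measured angiopoietin receptors and relatives, *Angptl1* (0.69, from a level below background on WT-CT) and *Angptl4* (0.68), an inhibitor of lipoprotein lipase, rose in WT-HFD over WT-CT, and none passed in the genotype comparisons.

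Adrenomedullin acts on *Calcrl* joined to a *Ramp* protein. *Calcrl* had a log2 level of 6.92 on cKO-HFD, 7.23 on WT-HFD, 7.35 on cKO-CT and 6.78 on WT-CT, and *Ramp2* 9.02, 8.87, 8.83 and 8.27 on the same arrays. As for *Adm*, both stood lowest on WT-CT. Of the 6 genes of this list, *Ramp2* rose in WT-HFD over WT-CT (0.59), a call lost after cyclic loess, and had 0.55 in cKO-CT over WT-CT, where *Calcrl* had 0.57. Among 12 other FGF ligands and receptors, *Fgf13*, an intracellular homologue that is not secreted, rose in cKO-CT (0.61, not after cyclic loess) and WT-HFD (1.28) over WT-CT and in cKO-HFD over cKO-CT (0.94). *Fgf2*, an angiogenic ligand, fell by 0.90 in cKO-HFD over cKO-CT, with log2 levels of 7.75 on cKO-HFD and 8.65 on cKO-CT. *Fgf16* fell by 0.67 in cKO-CT over WT-CT, but it lay below background on cKO-CT.

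Other angiogenic ligands and inhibitors of angiogenesis both had medians above 0 in both comparisons with WT-CT. Of 15 measured angiogenic ligands outside the set, 13 had ratios above 0 in cKO-CT over WT-CT, with a median of 0.37, and 3 rose: the matricellular genes *Ccn1* (1.54) and *Ccn2* (0.62) and the Notch ligand of endothelial tip cells *Dll4* (0.61). After cyclic loess only 1 passed and after median centring 5. *Ccn1* (1.18) and *Ccn2* (0.76) also rose in WT-HFD over WT-CT, and *Dll4* rose by 0.59 in cKO-HFD over WT-HFD, a call that cyclic loess ended. *Apln*, which encodes the endothelial ligand apelin, rose by 0.77 in cKO-HFD over cKO-CT. Of 9 measured inhibitors, 1 rose in cKO-CT, *Thbs1* (1.26), which encodes thrombospondin 1, and 2 after median centring. In cKO-HFD over WT-HFD *Thbs2*, its close relative, fell by 0.77, and in cKO-HFD over cKO-CT *Thbs1* rose by 0.79. In WT-HFD over WT-CT 5 rose, *Thbs1* (1.67), *Thbs2* (1.06), *Serpinf1* (0.73), *Sparc* (0.69) and *Timp3* (0.60), and 4 after cyclic loess. The median log2 ratio of the inhibitors was 0.49 in cKO-CT and 0.60 in WT-HFD over WT-CT. For scale, 3.51% of genes averaging 7 or more in log2 level were higher in cKO-CT and 5.97% in WT-HFD, each over WT-CT.

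Endothelial and mural cell markers mostly had ratios above 0, with few calls in the 4 comparisons of genotype or diet. In cKO-HFD over WT-CT, where genotype and diet both differ, 8 of 15 endothelial markers rose, with a median log2 ratio of 0.71. There 5 of 10 pericyte and smooth muscle markers rose too, with a median of 0.54. In that comparison 3.36% of all genes were higher, and 6.71% at a mean log2 level of 7 or more. The mean log2 level of 15 endothelial markers was 8.70 on cKO-HFD, 8.34 on WT-HFD, 8.46 on cKO-CT and 8.06 on WT-CT, all 15 lying above background on every array. Their median log2 ratio was 0.40 in cKO-CT over WT-CT, where *Robo4* (0.65) and *Ptprb* (0.59) rose (neither after cyclic loess), and 0.41 in cKO-HFD over WT-HFD, where *Nos3*, the endothelial nitric oxide synthase gene, rose by 0.72. It was 0.30 in WT-HFD over WT-CT, where *Cd34* rose (0.62, not after cyclic loess), and 0.27 in cKO-HFD over cKO-CT. The mean log2 level of 10 pericyte and smooth muscle markers was 8.12 on cKO-HFD, 7.83 on WT-HFD, 8.0 on cKO-CT and 7.52 on WT-CT. *Acta2*, smooth muscle actin, rose by 1.48 in cKO-CT and by 1.26 in WT-HFD, each over WT-CT, and *Pdgfrb*, a receptor of pericytes, rose by 0.60 in cKO-CT over WT-CT. Of these 2 calls in cKO-CT, 1 was left after cyclic loess. Within each genotype, then, the endothelial markers averaged higher on HFD, where *Vegfa* and *Angpt1* were lower. That holds for this list, of which 14 of 15 markers lay above 0 in cKO-HFD over cKO-CT and *Cd34* had -0.25. The receptors *Kdr*, *Flt1* and *Tek*, kept in other lists, had -0.17, -0.11 and -0.21 there. In WT-HFD over WT-CT these receptors had -0.01, 0.09 and 0.12. In bulk tissue, more cells of a type and more RNA per cell cannot be told apart. Of 12 macrophage markers, 5 rose in cKO-CT over WT-CT (1 after cyclic loess) and 8 in WT-HFD over WT-CT, with medians of 0.56 and 0.77. The shares of all genes that were higher in these comparisons were 1.64% and 3.16%, and 3.51% and 5.97% at a mean log2 level of 7 or more. In cKO-HFD over WT-HFD the median of the macrophage markers was -0.33 and 3 fell. There 2.11% of all genes were lower, and 3.17% at a mean log2 level of 7 or more. In cKO-HFD over cKO-CT the median was -0.11 and none passed. *Adm* had 0.11 and 0.01 in the last 2 comparisons. The part of macrophages in the levels of *Adm* was not tested.

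**Figure D4:**
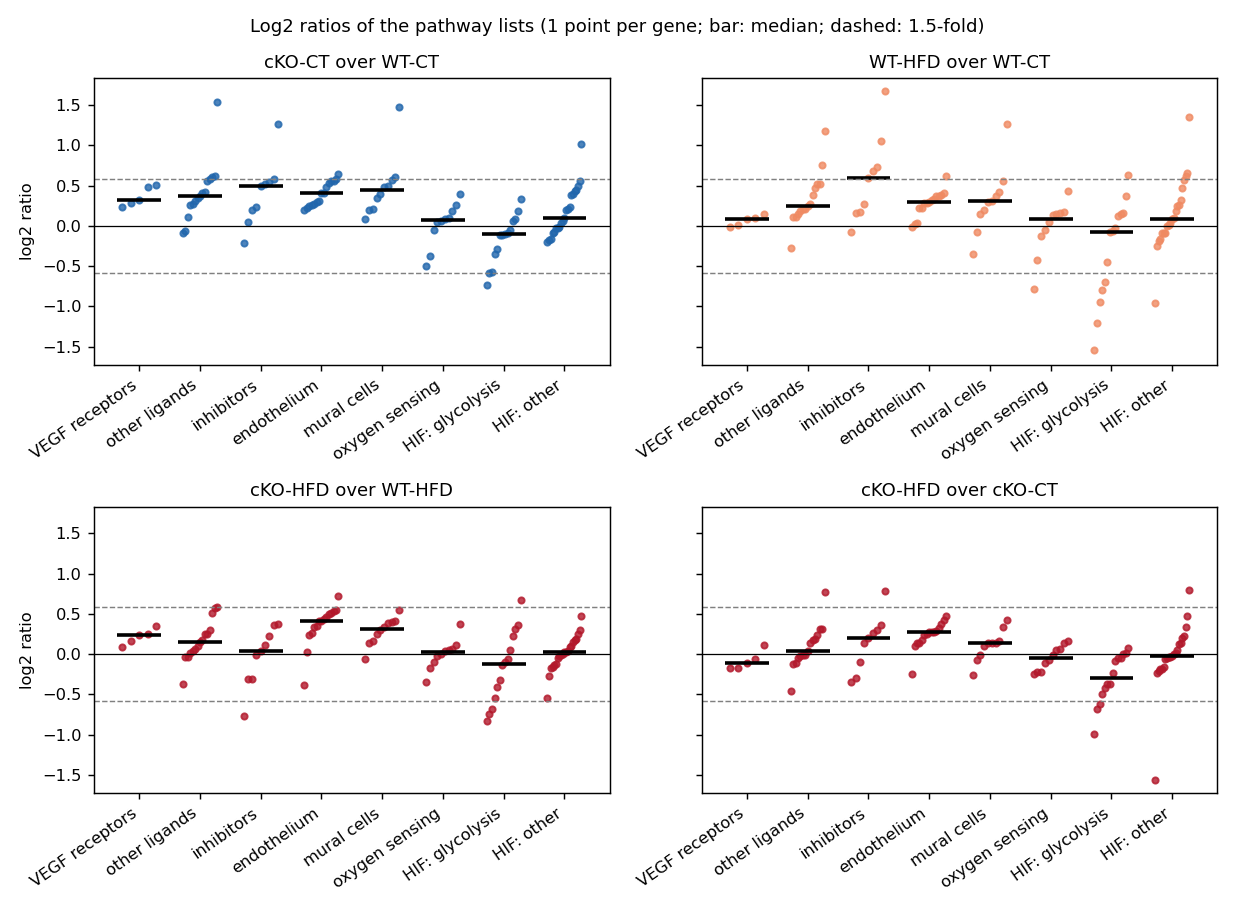
Log2 ratio (vertical axis) of each measured gene of 8 lists in 4 comparisons, 1 point per gene, with black bars at the medians and dashed lines at 1.5-fold. Endothelial markers lie mostly above 0 in all 4 comparisons (medians 0.40, 0.30, 0.41 and 0.27), and glycolytic HIF targets reach -1.54 in WT-HFD over WT-CT.

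Genes of oxygen sensing and HIF targets gave no common direction. Among the 10 genes of HIF subunits and oxygen sensing, *Epas1*, which encodes HIF-2 alpha and is prominent in endothelium and fat, had log2 levels of 10.72 on cKO-HFD, 10.35 on WT-HFD, 10.66 on cKO-CT and 10.39 on WT-CT. *Epas1* thus stood 0.37 higher on the cKO array on HFD and 0.26 higher on CT. *Egln3*, an oxygen-dependent hydroxylase that marks HIF for degradation and is itself a HIF target, fell by 0.79 in WT-HFD over WT-CT, to a level of 5.42 on WT-HFD, under background. No other gene of this list passed in the 4 comparisons of genotype or diet.

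Of 14 measured glycolytic HIF targets, the median log2 ratio was -0.10 in cKO-CT and -0.07 in WT-HFD, each over WT-CT, -0.12 in cKO-HFD over WT-HFD and -0.30 in cKO-HFD over cKO-CT. In cKO-CT over WT-CT 1 fell, the phosphofructokinase *Pfkl* (-0.74), and 3 fell after cyclic loess. In WT-HFD over WT-CT 5 fell, *Pfkl* (-1.54), the pyruvate dehydrogenase kinase *Pdk1* (-1.20), the hexokinase *Hk2* (-0.95), *Pfkp* (-0.80) and *Pgam1* (-0.70), and the lactate transporter *Slc16a3* rose (0.63). In cKO-HFD over cKO-CT *Pdk1* (-0.99), *Hk2* (-0.68) and the phosphoglycerate kinase *Pgk1* (-0.62) fell. Among genes averaging 7 or more in log2 level, 5.02% were lower in WT-HFD over WT-CT and 4.07% in cKO-HFD over cKO-CT. In cKO-HFD over WT-HFD *Slc16a3* (-0.83), *Pgk1* (-0.75) and *Aldoa* (-0.68) fell and *Pfkp* rose (0.67). There 3.17% of genes averaging 7 or more were lower and 0.90% higher. Skeletal muscle, which is rich in glycolytic enzymes, differed most between these 2 arrays, with a median log2 ratio of -3.95 over 15 markers. The median of these markers was -2.14 in cKO-HFD over cKO-CT and 1.72 in WT-HFD over WT-CT. The part of muscle was not tested in any comparison.

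Of 21 measured HIF targets of other kinds, the median log2 ratio was 0.10 in cKO-CT and 0.08 in WT-HFD, each over WT-CT, 0.03 in cKO-HFD over WT-HFD and -0.03 in cKO-HFD over cKO-CT. *Lep*, the leptin gene, rose in cKO-CT over WT-CT (1.02) and in cKO-HFD over cKO-CT (0.80), and in WT-HFD over WT-CT *Lep* (1.35), *Hmox1*, which encodes haem oxygenase 1 (0.66), and *Lox*, a collagen cross-linking enzyme (0.62), rose. *Bhlhe40*, a transcriptional repressor induced by hypoxia and by the circadian clock, had log2 levels of 6.59 on cKO-HFD, 7.13 on WT-HFD, 8.15 on cKO-CT and 8.09 on WT-CT. It fell by 1.56 in cKO-HFD over cKO-CT and by 0.96 in WT-HFD over WT-CT, and like *Vegfa* it stood lower on both HFD arrays. *Bnip3*, a widely used hypoxia marker that encodes a mitophagy receptor, stayed between 10.51 and 10.56 on the 4 arrays, and *Slc2a1*, the glucose transporter GLUT1, between 7.63 and 7.77. *Car9*, which encodes the hypoxia-induced carbonic anhydrase 9, lay below background on all 4 arrays. Other targets of the list had ratios above 0 that stayed under 1.5-fold. *Ndrg1* had 0.56 in cKO-CT and 0.57 in WT-HFD, each over WT-CT, and *P4ha1* 0.39 and 0.47. Of the 21 targets, 13 had ratios above 0 in cKO-CT over WT-CT and 13 in WT-HFD over WT-CT.

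*Vegfa* also stood low where brown and beige fat markers did. The mean log2 level of 8 such markers was 6.89 on cKO-HFD, 7.01 on WT-HFD, 8.31 on cKO-CT and 9.05 on WT-CT. Their median log2 ratio was -1.33 in WT-HFD over WT-CT and -1.49 in cKO-HFD over cKO-CT, where *Vegfa* had -0.58 and -0.74. In cKO-CT over WT-CT, by contrast, the median of these markers was -0.70 and the ratio of *Vegfa* was 0.02. The part of beige adipocytes in the level of *Vegfa* was not tested.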

How the data were processed

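The data were 4 Affymetrix MoGene 1.0 ST arrays of SAT, 1 per group, each with RNA pooled from 4 to 5 mice. The authors deposited log2 levels for 35556 probe sets, made by RMA (background correction, quantile normalization across arrays and summary of probes). Per the methods this was RMA-Sketch in Affymetrix APT, and per the submitters' processing notes Affymetrix Expression Console. Versions are not given in the sources used here. The values were used as deposited, without the detection filter of the methods. Precision is limited by having so few arrays.

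Gene names came from the platform's annotation and may be outdated: 21789 carried 1 gene name, 1621 several and 12146 none. Levels were averaged over a gene's probe sets that carry no other name. Of 202 symbols in 18 lists 190 were measured. Genes with a log2 ratio of at least 1.5-fold were called, with no test. The comparison of cKO-HFD with WT-CT was added after values were seen. The members and lists were chosen with earlier results of these data known. All members are named, and of the lists the genes past 1.5-fold with the largest ratio, up to 4 per comparison or all of a count of 5 or fewer, with *Flt1*, *Kdr*, *Tek*, *Calcrl*, *Ramp2* and *Epas1*. *Bnip3*, *Slc2a1*, *Car9*, *Ndrg1* and *P4ha1* were named after their values were seen. Of lists fixed for comparison, lymphatic endothelial markers had a median log2 ratio of 0.21 and keratinocyte markers of -0.19 in cKO-CT over WT-CT.

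As alternatives, each gene was given its probe set of highest mean level, arrays were centred on their medians or scaled by cyclic loess (span 0.7, 3 iterations), the genes were limited to those over the *Olfr* background on any array or to those averaging 7 or more in log2 level, and a 2-fold size was used. The steps were tested on simulated data. Python 3.11.15, numpy 2.4.6, pandas 2.3.3, matplotlib 3.10.9, R 4.3.3 and limma 3.58.1 were used. Promoter windows and coordinates are from RefSeq, GRCm38.p6.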

Additional observations from a re-analysis of the deposited data

Results flagged for a closer look

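Of the 9 measured genes, 4 had ratios of opposite sign in parallel comparisons, each on 1 array per group, and none of these differences was tested. After cyclic loess 2 of these 4, *Angpt2* and *Angpt1*, still had opposite signs, and so did the diet ratio of *Adm* after cyclic loess or median centring. The diet ratio of *Angpt2* was 0.26 in cKO mice and -0.30 in WT mice, and its genotype ratio was 0.53 on HFD and -0.04 on CT, a difference of 0.57 either way. The diet ratio of *Vegfc* was 0.04 in cKO mice and -0.09 in WT mice, a difference of 0.13 below the *Olfr* background, and after cyclic loess both were -0.06. The genotype ratio of *Vegfa* was -0.15 on HFD and 0.02 on CT, a difference of -0.17, while after cyclic loess it was -0.16 and -0.07. That of *Angpt1* was -0.09 on HFD and 0.16 on CT, a difference of -0.26. Opposite signs were common among all genes, at 47.8% for the diet ratio and 52.1% for the genotype ratio. In the set 2 of 9 genes had them for the diet ratio and 3 of 9 for the genotype ratio, *Angpt2* in both. The share of all genes with opposite signs in either was not counted.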

How the results depend on the processing

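With 1 array per group the limits of these results are set by the number of arrays, and no replicate could be left out. The 45 log2 ratios of the 9 measured genes over 5 comparisons moved by less than the robust SD at their level under the highest probe set, median centring and cyclic loess, and the largest shift was 0.10, for *Vegfc*. Counts of genes past 1.5-fold were small and lay near the threshold. At 2-fold, 0 of the 9 genes were called in any of the 5 comparisons. Few of all genes were called at that size, at most 0.82% higher (WT-HFD over WT-CT) and 0.98% lower (cKO-HFD over WT-CT). Among the 4 genes averaging 7 or more in log2 level, the count was 0 for both comparisons of a single change with WT-CT (cKO-CT and WT-HFD), 1 (*Vegfa*) in cKO-HFD over cKO-CT and 2 in cKO-HFD over WT-CT, since *Adm*, *Pgf* and *Angpt1* lie below that level. After cyclic loess 2 genes were called in WT-HFD over WT-CT, with *Vegfa* beside *Adm*, and 3 in cKO-HFD over cKO-CT, with *Fgf1* beside *Vegfa* and *Angpt1*. With this scaling 3.08% of all genes were higher and 2.69% lower in WT-HFD over WT-CT, and 1.26% and 2.26% in cKO-HFD over cKO-CT. Median log2 ratios of the set were small and not stable in sign in the diet comparisons. In cKO-CT over WT-CT the median was 0.16 as reported and 0.08 after cyclic loess, in WT-HFD over WT-CT it was -0.04 as reported and 0.09 for genes over the *Olfr* background or averaging 7 or more, and in cKO-HFD over cKO-CT it was 0.04 as reported and -0.02 after cyclic loess. In the genotype comparisons it stayed above 0 under every setting run. The signal over background limits *Pgf*, *Angpt1*, *Angpt2* and *Adm*, which lie close to the *Olfr* level.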
